A study of Mus musculus with 6 samples.

Results

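The transcripts of the mouse mitochondrial genome were described in obstructed kidneys of Cd248 knockout mice and of wild type mice. Members were the genes of the deposited expression table whose symbol begins with mt-, which gave 13 protein-coding genes, 2 rRNAs and 22 tRNAs, 37 of 33679 genes. All 37 gene identifiers lay on the mitochondrial chromosome in the GENCODE M21 annotation, which is of the same build (GRCm38, or mm10) as the submitters' processing notes name. The tissue was kidney after unilateral ureteral obstruction, a surgery that blocks urine flow from 1 kidney and leads to scarring, and both genotypes underwent it. Cd248 encodes endosialin, a surface glycoprotein of fibroblasts and pericytes. The labels name 3 Cd248 knockout and 3 wild type samples, of which 1 knockout (replicate 1) and all 3 wild type samples had an FPKM column. The other two knockout samples were not analysed here. The sources used here do not give the strain, age, sex, days of obstruction or how the knockout was made. The protocol in the labels speaks of pooled RNA and names no single animals, so p-values reflect library-to-library spread alone, and that spread may be technical.

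The mitochondrial genome is a small circle that codes for subunits of respiratory complexes I, III, IV and V, and for the rRNAs and tRNAs that translate them inside the organelle. Both strands are transcribed as long precursors, and the tRNAs lie between most of the other genes and are cut out, which frees the rRNAs and mRNAs. Most mature mitochondrial mRNAs carry a short poly(A) tail, which oligo(dT) purification, as used here, can bind, while in human cells the ND6 mRNA is known to lack one. The rRNAs and tRNAs are captured poorly. Kidney tubule cells, those of the proximal tubule and thick ascending limb above all, are rich in mitochondria.

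Values are FPKM, the authors' fragment level scaled to transcript length and to the mapped fragments of the library. The FPKM total was 304426 in the knockout library, against 267394, 279294 and 285322 in wild type replicates 1, 2 and 3, and read depth is unknown. For Cd248 the table lists 0 FPKM in the knockout library, against 9.03, 9.57 and 8.78 FPKM in the wild type libraries, which follows the labels. Immunoglobulin genes held 5.98% of the total in the knockout library, against 0.202%, 0.164% and 0.113% in the wild type libraries. With a single knockout library, each SD is over wild type libraries, and the smallest p an exact permutation test of a single value can give is 0.25.

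The mitochondrial mRNAs were among the most abundant transcripts of every library, and their summed share of all FPKM in the knockout library lay within the wild type range. In the knockout library the 13 mRNAs held 16.03% of total FPKM, against 12.6%, 15.2% and 16.9% in wild type replicates 1, 2 and 3. The difference from the wild type mean of 14.9% ± 2.16 (SD, n = 3) was 1.13 percentage points (exact permutation test, two-sided, p = 0.75). Without wild type replicate 1 that difference was -0.0121 percentage points. When immunoglobulin genes were not counted in the total, the share was 17.1% in the knockout library, against 12.6%, 15.2% and 16.9% in the wild type libraries, which placed the knockout library above all 3 (exact permutation p = 0.5). In bulk tissue, a different content of mitochondria-rich cells and a different level of mitochondrial RNA per cell cannot be told apart.

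In the knockout library all 37 members together held 16.9% of total FPKM, against 13.2%, 15.96% and 17.8% in the wild type libraries (exact permutation p = 0.75). The tRNA genes contributed 0.767%, against 0.472%, 0.654% and 0.780%, and the knockout library was again inside the range. The rRNAs contributed 0.0966%, against 0.110%, 0.122% and 0.151%, and here the knockout library was below all wild type libraries (exact permutation p = 0.5). Of the 20 genes with the highest FPKM, 12 were mitochondrial in each of the 4 libraries. Chromosome 1 copies of mitochondrial genes, described below, were another 5 of the 20 in the knockout library, against 6, 5 and 5 in the wild type libraries.

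**Figure D1:**
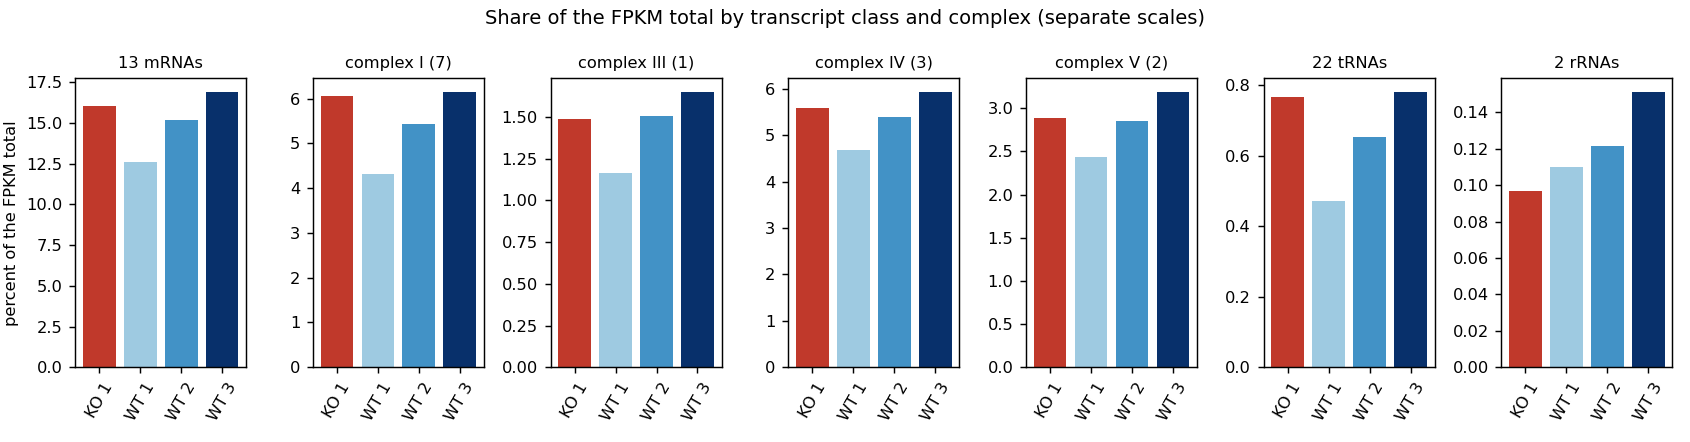
Percent of the FPKM total (vertical axes, each from 0, on separate scales) held by the mitochondrial mRNAs, by the mRNAs of each respiratory complex with the number of genes in brackets, by the tRNAs and by the rRNAs. Each bar is 1 library, with the knockout library (KO 1) left of the wild type libraries (WT 1 to 3). The knockout bar lies between the lowest and highest wild type bars in every panel except that of the rRNAs, where it is lowest at 0.0966%.

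No member differed between knockout and wild type at the threshold used. Each gene was fitted on the log2(FPKM + 1) scale with limma's moderated linear model (two-sided), with Benjamini-Hochberg adjustment over the 16871 genes that averaged 0.5 FPKM or more. Of the 37 members, 36 passed that filter, and mt-Tv did not. An adjusted p under 0.05 was reached by 0 of 36 members and by 0.723% of all tested genes (0.640% higher and 0.0830% lower in the knockout library). At an unadjusted p under 0.05 there were 2 of 36 members, mt-Tl1 and mt-Tf, and 10.8% of all tested genes. In the authors' deposited table, q-values of the members ran from 0.22 to 1 and none was marked significant.

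The mRNAs shared 1 direction without passing the test. All 13 mRNAs had a positive difference, from 0.17 to 0.42 on the log2 scale with a median of 0.23, against a median of -0.01 over all tested genes. The median was 0.10 without wild type replicate 1 and -0.02 after quantile normalization, which left 5 of 13 positive. The knockout FPKM was above all wild type values for 6 of 13 mRNAs (28.0% of all tested genes were), inside their range for 7 and below it for 0 (31.2% of all tested genes). The FPKM total was also highest in the knockout library. As shares of that total, mt-Nd1, mt-Nd3 and mt-Nd6 were still above all wild type libraries, while mt-Nd2, mt-Nd5 and mt-Co1 were inside their range.

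Complex I, which takes electrons from NADH, has 7 mitochondrial subunits, and 5 of the 6 mRNAs above the wild type range in FPKM were among them. Their summed share of total FPKM was 6.07% in the knockout library, against 4.33%, 5.44% and 6.14% in wild type replicates 1, 2 and 3 (exact permutation p = 0.75). mt-Nd1, a membrane subunit beside the quinone site (chrM:2751-3707, plus strand), had 4810 FPKM in the knockout library, against 3013, 3647 and 4196 FPKM. It lay above every wild type library by a margin smaller than the gap between the lowest and highest of them. The difference was 0.42 on the log2 scale (SE 0.35, limma adjusted p = 0.709).

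mt-Nd6, the complex I subunit that is coded on the opposite strand from the other mRNAs (chrM:13552-14070, minus strand), was at 2755 FPKM, against 1579, 2173 and 2532 FPKM. Its neighbour mt-Nd5, a pump subunit (chrM:11742-13565), was at 2564 FPKM, against 1588, 2174 and 2521 FPKM, and the pump subunit mt-Nd2 (chrM:3914-4951) at 2510 FPKM, against 1456, 2067 and 2469 FPKM. In all of these the knockout library stood just above wild type replicate 3 and far above replicate 1 (limma differences 0.42, 0.32 and 0.36, adjusted p = 0.717, 0.783 and 0.767). mt-Nd3, another membrane subunit, was at 833 FPKM, against 576, 710 and 731 FPKM (difference 0.32, SE 0.21, adjusted p = 0.659). It was the lowest mRNA in each of the 4 libraries, and the next lowest in the knockout library, mt-Nd4, was at 2483 FPKM.

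mt-Nd4 and mt-Nd4l are carried on 1 bicistronic mRNA and share 7 bases. mt-Nd4 was at 2483 FPKM, against 1671, 2234 and 2522 FPKM, and mt-Nd4l at 2518 FPKM, against 1684, 2176 and 2559 FPKM. Both knockout values lay inside the wild type range, and the ratio of mt-Nd4l to mt-Nd4 was 1.01 in the knockout library, against 1.01, 0.974 and 1.01 in the wild type libraries.

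mt-Cytb, cytochrome b and the only mitochondrial subunit of complex III (chrM:14145-15288), had 4533 FPKM in the knockout library, against 3108, 4200 and 4706 FPKM in the wild type libraries. It held 1.489% of the FPKM total, against 1.162%, 1.504% and 1.649%. The knockout value was inside the range on both measures (limma difference 0.20, SE 0.39, adjusted p = 0.879).

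The catalytic core of complex IV, cytochrome c oxidase, held 5.59% of the FPKM total, against 4.68%, 5.39% and 5.92%. mt-Co1, the largest core subunit (chrM:5328-6872), had the highest level of all mRNAs of the mitochondrial genome, at 9720 FPKM in the knockout library, against 7045, 8741 and 9474 FPKM. Its knockout value exceeded all wild type values, with a limma difference of 0.22 (SE 0.45, adjusted p = 0.886). mt-Co2, which carries the copper site that receives electrons, was at 4165 FPKM, against 3166, 3568 and 4212 FPKM, and mt-Co3, the third core subunit, at 3118 FPKM, against 2309, 2758 and 3216 FPKM. Both lay just below wild type replicate 3. As a share of the FPKM total, mt-Co1 was inside the wild type range too, at 3.19%, against 2.63%, 3.13% and 3.32%.

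Complex V, the ATP synthase, held 2.89% of the FPKM total, against 2.43%, 2.85% and 3.19%. mt-Atp6, a subunit of its proton channel, was at 3994 FPKM, against 2960, 3672 and 4123 FPKM. mt-Atp8, a small subunit of its membrane part, was at 4802 FPKM, against 3547, 4294 and 4965 FPKM. Neither left the wild type range, and their limma differences, 0.17 for mt-Atp6 and 0.18 for mt-Atp8, were the smallest of the 13 mRNAs.

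Both genes are read from 1 mRNA and overlap, so fragments there belong to both. The shared stretch of 43 bases (chrM:7927-7969, GRCm38, plus strand, from GENCODE M21) is shown because it ties the values of the pair; capitals mark the start codon of mt-Atp6 and the stop codon of mt-Atp8.
mt-Atp8 and mt-Atp6: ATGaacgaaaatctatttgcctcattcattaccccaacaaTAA
The FPKM ratio of mt-Atp8 to mt-Atp6 was 1.202 in the knockout library, against 1.198, 1.169 and 1.204 in the wild type libraries.

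In the annotation, 3 of the 13 mRNAs end on the genome inside a stop codon, which the poly(A) tail completes. Their last 30 bases are shown because the tail is also what the oligo(dT) selection binds, with the base left of the stop codon in capitals (plus strand, GRCm38, chrM:9361-9390, chrM:11515-11544 and chrM:15259-15288).
mt-Co3: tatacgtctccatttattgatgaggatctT
mt-Nd4: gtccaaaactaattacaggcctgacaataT
mt-Cytb: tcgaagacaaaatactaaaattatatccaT
The limma differences of these 3 were 0.19, 0.23 and 0.20, inside the range of the mRNAs as a whole.

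**Figure D2:**
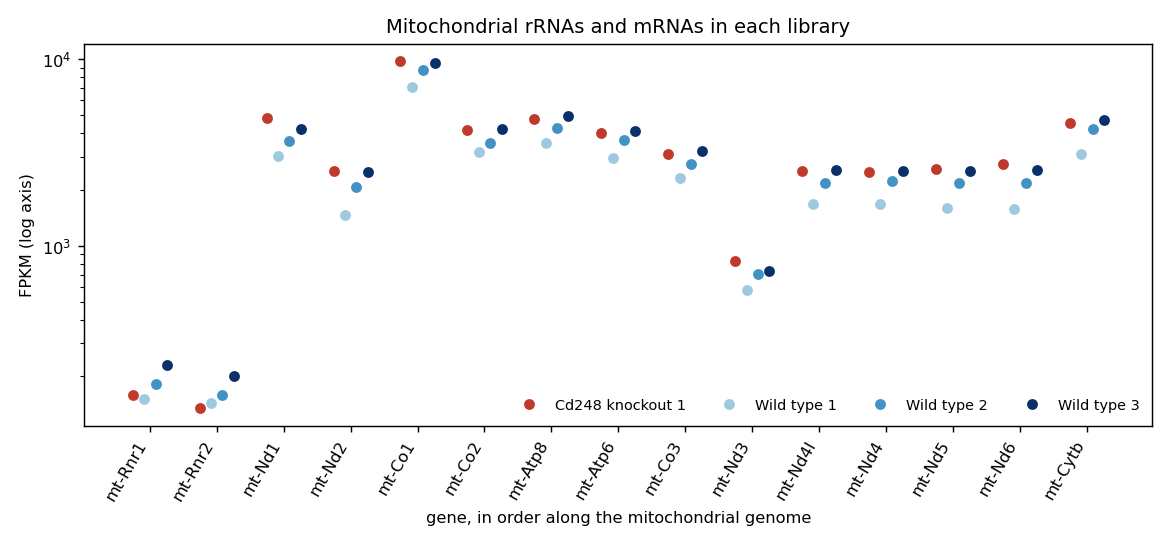
FPKM (vertical, log axis) of the 2 rRNAs and 13 mRNAs in the order of their genes along the mitochondrial genome, with 1 point per library and the knockout library left of the wild type libraries at each gene. For every mRNA the lowest of the 4 points is wild type 1, and mt-Nd3 is the lowest mRNA, at 833 FPKM in the knockout library against 576 to 731 FPKM in the wild type libraries.

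The spread between wild type libraries was larger for the mitochondrial mRNAs than for a typical gene. Their coefficient of variation over the 3 wild type libraries had a median of 16.6% (12.5% to 25.5%), against 9.49% for all tested genes. All 13 mRNAs and both rRNAs were lowest, among wild type libraries, in replicate 1 and highest in replicate 3. Of all tested genes, 25.0% were lowest in replicate 1 and 22.3% highest in replicate 3. The highest wild type value was 1.268 to 1.695 times the lowest.

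Markers of the proximal tubule, which reabsorbs most of the filtrate, also differed between libraries. The summed level of all 14 was 518 FPKM in the knockout library, against 180, 375 and 560 FPKM in wild type replicates 1, 2 and 3. Within wild type, 14 of 14 were lowest in replicate 1 (25.0% of all tested genes). None was at 0, and 0 of 14 were called (0.723% of all tested genes). Above all wild type libraries lay 5 of 14 (28.0% of all tested genes), and below them 0 (31.2%). Among the 5 above, those with the largest limma differences were Slc22a6 and Slc13a3. Slc22a6, an organic anion transporter, was at 26.7 FPKM, against 2.91, 13.4 and 23.0 FPKM, and Slc13a3, a dicarboxylate transporter, at 21.8 FPKM, against 2.72, 9.30 and 17.0 FPKM. Slc34a1, the phosphate transporter, named after its values were seen, was at 116 FPKM, against 32.8, 79.8 and 142 FPKM. The limma difference was positive for 12 of 14 markers. It was negative for Slc5a12 (-0.36) and Gatm (-0.15), both inside the wild type range and named after their values were seen. The 8 markers found of the thick limb and distal tubule summed to 612 FPKM, against 442, 775 and 686 FPKM, with none at 0. The 10 fibroblast and myofibroblast markers summed to 372 FPKM, against 812, 963 and 771 FPKM, with none at 0 and 2 of 10 called lower by limma (0.0830% of all tested genes). The part of tubule and fibroblast content in the mitochondrial values was not tested.

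Nuclear genes that code for the remaining subunits of complexes I to V had small positive differences. Of 75 such genes, 0 passed limma's test (4 at an unadjusted p under 0.05, which 10.8% of all tested genes reached), and the median difference was 0.19. Their summed level was 3948 FPKM in the knockout library, against 3172, 3435 and 3656 FPKM in the wild type libraries. The knockout value was above all wild type values for 63 of 75 (28.0% of all tested genes), and 61 of 75 were lowest in wild type replicate 1 (25.0% of all tested genes). Summed FPKM of the mitochondrial mRNAs was 12.4 times that of the nuclear subunits in the knockout library, against 10.6, 12.3 and 13.2 times in the wild type libraries (exact permutation p = 0.75). By complex, the mean level of the mitochondrial subunits over that of the nuclear ones was 84.2, 79.5, 55.0 and 68.9 for complexes I, III, IV and V in the knockout library. In wild type replicates 1, 2 and 3 it was 65.2, 78.8 and 86.0 for complex I and 70.3, 85.7 and 88.7 for complex III. For complex IV the wild type ratios were 50.8, 57.2 and 60.3, and for complex V they were 62.01, 70.2 and 76.1. The knockout ratio lay inside the wild type range for each complex.

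Genes that make and maintain mitochondrial RNA and DNA showed no called difference. In the transcription list, 0 of 10 genes passed, with a median difference of 0.13. An unadjusted limma p under 0.05 was reached by 1 of 10 (10.8% of all tested genes). The knockout value was above all wild type values for 6 of 10 (28.0% of all tested genes) and below them for 0 (31.2%). Tefm, the elongation factor of the mitochondrial RNA polymerase, had 6.07 FPKM in the knockout library, against 4.21, 4.21 and 4.15 FPKM in the wild type libraries. That was above a narrow wild type range (difference 0.45, adjusted p = 0.261). Polrmt, the polymerase itself, was at 5.99 FPKM, against 5.91, 5.26 and 5.08 FPKM, and Tfam, which packages mitochondrial DNA and starts transcription, at 8.02 FPKM, against 6.99, 7.79 and 7.47 FPKM. These 2 were named after their values were seen. Mterf1b, a paralog of the mitochondrial termination factor, was at 2.16 FPKM, against 2.01, 1.43 and 1.50 FPKM.

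In the list for RNA processing and stability, 0 of 20 genes passed, with a median difference of 0.08. An unadjusted limma p under 0.05 was reached by 0 of 20 (10.8% of all tested genes). Slirp, which with Lrpprc stabilises mitochondrial mRNAs, was at 5.54 FPKM, against 4.03, 4.49 and 4.83 FPKM. Fastkd1, an RNA-binding protein of the FASTK family, was at 3.71 FPKM, against 2.45, 3.03 and 3.04 FPKM. Both lay above the wild type range, as did 11 of 20 genes in the list (28.0% of all tested genes), and 2 of 20 lay below it (31.2%).

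For mitochondrial DNA replication and nucleotide supply, 0 of 12 genes passed, with a median difference of 0.10. An unadjusted limma p under 0.05 was reached by 0 of 12 (10.8% of all tested genes). Of the 12, 7 lay above all wild type values (28.0% of all tested genes) and 1 below them (31.2%). Polg2, the accessory subunit of the DNA polymerase, was at 2.25 FPKM, against 1.86, 1.71 and 1.67 FPKM, and Primpol, a primase, at 3.22 FPKM, against 2.88, 2.38 and 2.69 FPKM. Among regulators of mitochondrial biogenesis, 0 of 10 passed, with a median difference of 0.10. An unadjusted limma p under 0.05 was reached by 2 of 10 (10.8% of all tested genes). Of the 10, 4 lay above all wild type values (28.0%) and 2 below them (31.2%). Esrrg, an orphan nuclear receptor, was at 10.5 FPKM, against 7.41, 7.99 and 8.36 FPKM, and Pprc1, a coactivator related to PGC-1, at 4.87 FPKM, against 6.97, 6.53 and 6.33 FPKM. The pair lay on opposite sides of the wild type range. Of 12 genes taken as measures of mitochondrial mass, 0 passed, with a median difference of 0.12. An unadjusted limma p under 0.05 was reached by 0 of 12 (10.8% of all tested genes). Of the 12, 8 lay above all wild type values (28.0%) and 0 below them (31.2%). Vdac1, the main channel of the outer membrane, was at 104 FPKM, against 77.9, 90.6 and 95.0 FPKM, and Hspa9, the chaperone of protein import, at 73.9 FPKM, against 57.8, 66.3 and 69.6 FPKM.

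Dividing each value by the summed FPKM of the 13 mRNAs, a scale on which the results given were chosen after their values were seen, removed most of the spread between wild type libraries. The coefficient of variation of the mRNAs over the wild type libraries then had a median of 3.29% (1.35% to 8.57%). The shares of the 13 mRNAs sum to 100% in each library, so changes they have in common drop out by construction. For the same reason a larger share of some mRNAs lowers that of others, and the complexes are not separate results. On this scale the knockout value was above all wild type values for 4 of 13 mRNAs, mt-Nd1, mt-Nd2, mt-Nd5 and mt-Nd6, all of complex I. The remaining complex I mRNAs, mt-Nd3, mt-Nd4l and mt-Nd4, were inside the range. Those inside have an annotated gene model of a near-identical copy on chromosome 1, described below. The 4 above have no such gene model, as is true of mt-Atp8 and mt-Cytb. Copies were sought among annotated transcripts alone, so a copy without a gene model would be missed. mt-Atp8 lies between mt-Co2 and mt-Atp6, which both have such a model, and shares 43 bases with mt-Atp6. The part of these copies was not tested. The knockout value was below all wild type values for 3 mRNAs, mt-Atp8, mt-Atp6 and mt-Co3. The same division put 6.67% of all tested genes above and 43.3% below all wild type values, though genes outside the sum are not bound by it. Complex I mRNAs made up 37.9% of mitochondrial mRNA FPKM in the knockout library, against 34.3%, 35.8% and 36.3% in the wild type libraries. Complex V mRNAs made up 18.0%, against 19.3%, 18.8% and 18.8%. For complexes I and V the knockout library lay outside the wild type range (exact permutation test, two-sided, p = 0.25 each, the smallest possible). Complex IV mRNAs made up 34.8%, against 37.1%, 35.5% and 35.0%, with the knockout library below all wild type libraries (exact permutation p = 0.5). Complex III, mt-Cytb alone, made up 9.29%, against 9.22%, 9.90% and 9.76%, inside the range (exact permutation p = 0.75).

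On this scale both rRNAs lay below all wild type values, as did 43.3% of all tested genes. The summed FPKM of the rRNAs was 0.602 per 100 FPKM of mitochondrial mRNA in the knockout library, against 0.872, 0.8003 and 0.894 in the wild type libraries (exact permutation p = 0.25, the smallest possible). mt-Rnr1, the small subunit rRNA (chrM:70-1024), was at 159 FPKM, against 150, 181 and 231 FPKM. mt-Rnr2, the large subunit rRNA (chrM:1094-2675), was at 135 FPKM, against 143, 158 and 200 FPKM. As levels, the first was inside and the second below the wild type range (limma differences -0.21 and -0.29, adjusted p = 0.803 and 0.679). Nuclear RNAs without a poly(A) tail, 9 in the table, summed to 11.9 FPKM in the knockout library, against 8.42, 6.06 and 8.72 FPKM. Of the 9, 1 was at 0 in every library, and 3 were tested with 0 called. An unadjusted limma p under 0.05 was reached by 2 of the 3, and by 10.8% of all tested genes. The 2 were Rn7s1 and Rn7s2, both higher in the knockout library. Their values were equal in that library (2.62 FPKM) and in wild type replicates 1 and 3. The part of poly(A) selection in the rRNA values was not tested.

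The gene that follows mt-Rnr2 with no base between them, mt-Tl1, a leucine tRNA (chrM:2676-2750, plus strand), is in turn followed with no base between them by mt-Nd1. mt-Tl1 had 219 FPKM in the knockout library, against 109, 119 and 142 FPKM in the wild type libraries. The knockout value was 1.78 times the wild type mean of 123 ± 16.6 FPKM (SD, n = 3), above every library, and did not pass the test (limma difference 0.83, SE 0.18, adjusted p = 0.277). Ratios within this stretch, chosen after their values were seen, set the knockout library apart. The FPKM ratio of mt-Tl1 to mt-Rnr2 was 1.62 in the knockout library, against 0.762, 0.749 and 0.706 in the wild type libraries. The ratio of mt-Nd1 to mt-Rnr2 was 35.6, against 21.0, 23.0 and 20.9. Each lay outside a narrow wild type range, with p = 0.25 by the exact permutation test, the smallest it can give.

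**Figure D3:**
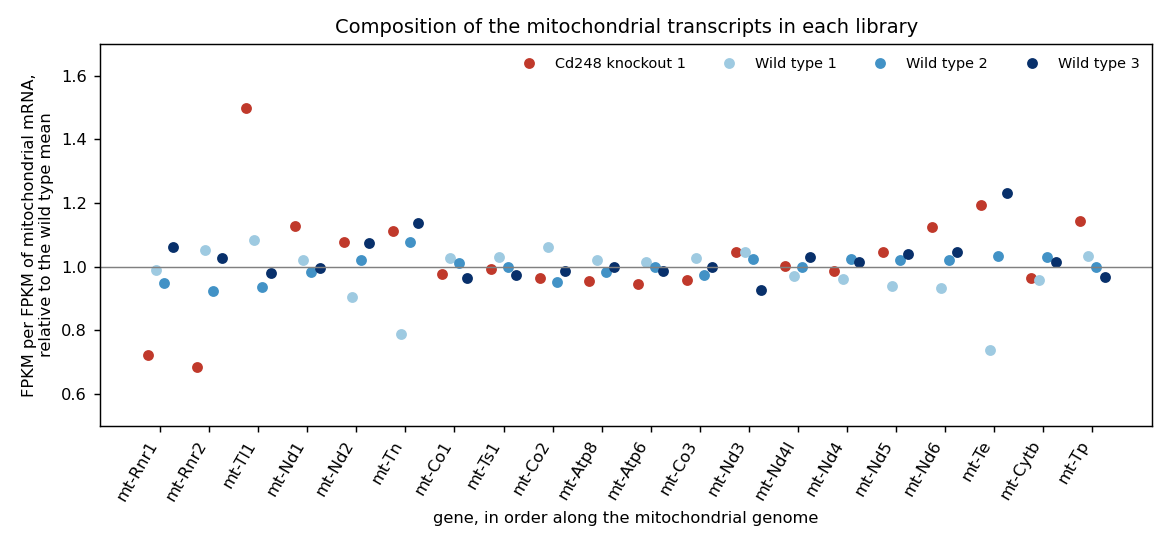
FPKM per FPKM of mitochondrial mRNA, relative to the wild type mean (vertical, linear, not from 0), of the rRNAs, the mRNAs and the 5 most abundant tRNA genes in order along the genome. Each point is 1 library, with the knockout library left of the wild type libraries, and the line marks the wild type mean. The knockout library is lowest for both rRNAs and highest for mt-Tl1, while most mRNAs cluster near 1 in all 4 libraries.

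The tRNA genes spanned the widest range of levels, and their median differed between the strands on which they are annotated. The 8 genes annotated on the minus strand had a median of 83.0 FPKM in the knockout library, against 40.2, 68.5 and 82.1 FPKM in the wild type libraries. For the 14 genes on the plus strand it was 6.03 FPKM, against 3.08, 4.57 and 4.89 FPKM. The lowest minus strand gene had 30.4 FPKM in the knockout library, against 15.0, 26.8 and 37.2 FPKM, above the plus strand median in each library. The strands overlapped, since the plus strand genes mt-Tl1 and mt-Tm, the methionine tRNA, had levels among those of the minus strand. Most mRNAs and both rRNAs are annotated on the plus strand, so a tRNA gene on the minus strand lies opposite the precursor that holds them. The sources used here do not say whether fragments were counted by strand, and reads of such a tRNA and of RNA from the opposite strand then cannot be told apart. The tRNA genes span 59 to 75 bases, shorter than the fragments of a usual library, which makes their FPKM uncertain.

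The 5 tRNA genes with the highest mean are shown with their GRCm38 positions because they carry most of the tRNA signal. They are mt-Te for glutamate (chrM:14071-14139, minus), mt-Ts1 for serine (chrM:6870-6938, minus), mt-Tp for proline (chrM:15356-15422, minus), mt-Tl1 (given above, plus) and mt-Tn for asparagine (chrM:5089-5159, minus). Capitals mark bases that another mitochondrial gene covers too, here the 3 bases that mt-Ts1 shares with the end of mt-Co1 on the other strand.
mt-Te: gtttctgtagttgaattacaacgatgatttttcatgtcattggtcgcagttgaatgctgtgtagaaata
mt-Ts1: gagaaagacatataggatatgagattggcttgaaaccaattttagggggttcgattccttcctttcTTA
mt-Tp: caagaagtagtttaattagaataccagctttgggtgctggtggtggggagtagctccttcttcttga
mt-Tl1: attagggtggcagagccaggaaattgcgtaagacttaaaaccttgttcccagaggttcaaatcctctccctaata
mt-Tn: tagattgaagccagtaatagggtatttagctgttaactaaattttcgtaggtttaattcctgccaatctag

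mt-Te, which lies between mt-Nd6 and mt-Cytb, had 829 FPKM in the knockout library, against 353, 623 and 844 FPKM in the wild type libraries. mt-Ts1 was at 587 FPKM, against 420, 512 and 569 FPKM, and mt-Tp at 234 FPKM, against 146, 178 and 195 FPKM. Of these, mt-Te was inside the wild type range and mt-Ts1 and mt-Tp were above it (limma adjusted p = 0.747, 0.736 and 0.524). mt-Tn was at 86.3 FPKM, against 42.2, 72.6 and 87.0 FPKM, inside the range. Over the 21 tested tRNA genes, the difference was positive for 16 and negative for 5, with a median of 0.40, and 7 lay above (28.0% of all tested genes did) and 1 below all wild type values (31.2%).

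**Figure D4:**
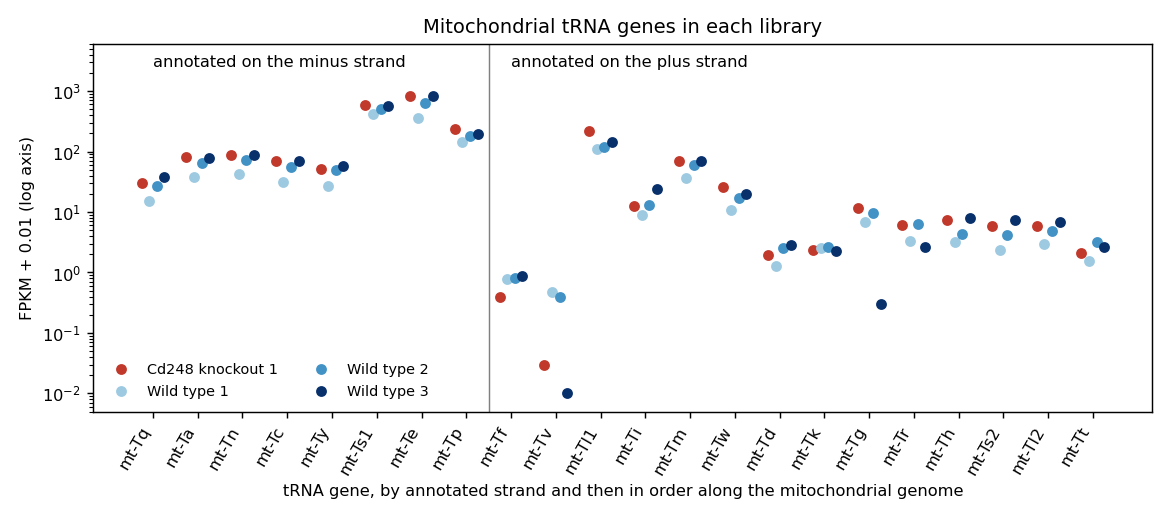
FPKM + 0.01 (vertical, log axis) of the 22 tRNA genes, those annotated on the minus strand on the left and on the plus strand on the right, with 1 point per library and the knockout library left of the wild type libraries at each gene. Every minus strand gene is at 15.0 FPKM or more in all 4 libraries, while most plus strand genes other than mt-Tl1 are lower.

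mt-Nd6 is likewise annotated on the minus strand, and its level was close to that of mt-Nd5, which ends opposite it and shares 14 bases. The FPKM ratio of mt-Nd6 to mt-Nd5, chosen after its values were seen, was 1.074 in the knockout library, against 0.9945, 0.9997 and 1.004 in the wild type libraries. The wild type mean was 0.9995 ± 0.00487 (SD, n = 3), and the knockout library lay above every wild type library (exact permutation test, p = 0.25, the smallest possible). As for the tRNAs, reads of mt-Nd6 and of RNA from the opposite strand cannot be told apart here.

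A stretch of nuclear chromosome 1 (chr1:24611535-24616197, minus strand) repeats part of the mitochondrial genome, and of its 7 gene models the 5 that are nearly full-length have almost the same FPKM as the mitochondrial genes they copy. Within the aligned bases, 5 of the 7 were identical to the mitochondrial transcript and 2 differed by 1 base, so a short read from the identical stretches matches both places. For Gm29216, the copy of mt-Co1, the alignment held 483 of the 492 bases of the model, and the rest was not compared. Gm10222, the copy of mt-Nd4l (chr1:24612407-24612700), had 2529 FPKM in the knockout library, against 1698, 2201 and 2586 FPKM in the wild type libraries. Its ratio to mt-Nd4l was 1.004 in the knockout library, against 1.008, 1.011 and 1.010. The 294 bases, read identically from chrM:9877-10170 on the plus strand and from the chromosome 1 copy on the minus strand, are shown once for both.
mt-Nd4l and Gm10222: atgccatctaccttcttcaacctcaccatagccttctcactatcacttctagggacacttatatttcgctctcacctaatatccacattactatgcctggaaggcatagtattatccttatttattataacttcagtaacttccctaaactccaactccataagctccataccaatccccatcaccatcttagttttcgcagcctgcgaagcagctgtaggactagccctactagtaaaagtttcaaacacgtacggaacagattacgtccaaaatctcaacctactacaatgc

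The 2 copies with a mismatch are shown over 60 bases, with the differing base in capitals, because it is the one mismatch within the aligned stretch. Gm28438 differs from mt-Nd3 by T3C and Gm29216 from mt-Co1 by A1066T, counted from 1 at the first base of the mitochondrial gene, whose base comes first. The stretches are chrM:9459-9518 (plus) beside chr1:24613060-24613119 (minus), and chrM:6390-6449 (plus) beside chr1:24616129-24616188 (minus), all GRCm38.
mt-Nd3: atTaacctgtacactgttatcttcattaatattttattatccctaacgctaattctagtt
Gm28438: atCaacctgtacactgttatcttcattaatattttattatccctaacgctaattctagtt
mt-Co1: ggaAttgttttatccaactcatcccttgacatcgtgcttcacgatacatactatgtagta
Gm29216: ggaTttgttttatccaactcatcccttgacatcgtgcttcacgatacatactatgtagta
Gm28438 had 829 FPKM in the knockout library, against 571, 703 and 750 FPKM, next to the 833 FPKM and 576, 710 and 731 FPKM of mt-Nd3.

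Over the 5 copies that cover more than 98% of their mitochondrial gene, the ratio of copy to mitochondrial FPKM was 0.990 to 1.08 in all 4 libraries. For the 2 that cover only part of mt-Nd4 and mt-Co1 it was 0.345 to 0.716. Together the 7 copies held 6.60% of total FPKM in the knockout library, against 5.44%, 6.36% and 7.16% in the wild type libraries. They follow the same order of libraries as the members, and the knockout library was inside the range (exact permutation p = 0.75). Counted with the members, they brought the mitochondrial share to 23.5%, against 18.6%, 22.3% and 24.99%. Of the 13 mRNAs, 7 have a gene model of such a copy and 6 do not, and their limma differences had medians of 0.22 and 0.34. mt-Atp8 is among the 6, although its place between mt-Co2 and mt-Atp6 lies within the chromosome 1 stretch.

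Older insertions elsewhere in the nuclear genome had low values in the table. Of 10 further gene models with at least 100 bases aligned at 90% identity or more, 7 were in the table, at 92.4% to 97.6% identity. The highest, Gm13341, a copy of mt-Co2 on chromosome 2, had 31.7 FPKM in the knockout library, against 22.3, 25.2 and 33.2 FPKM in the wild type libraries. The ratio of copy to mitochondrial FPKM was at most 0.00787 for these 7 copies.

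**Figure D5:**
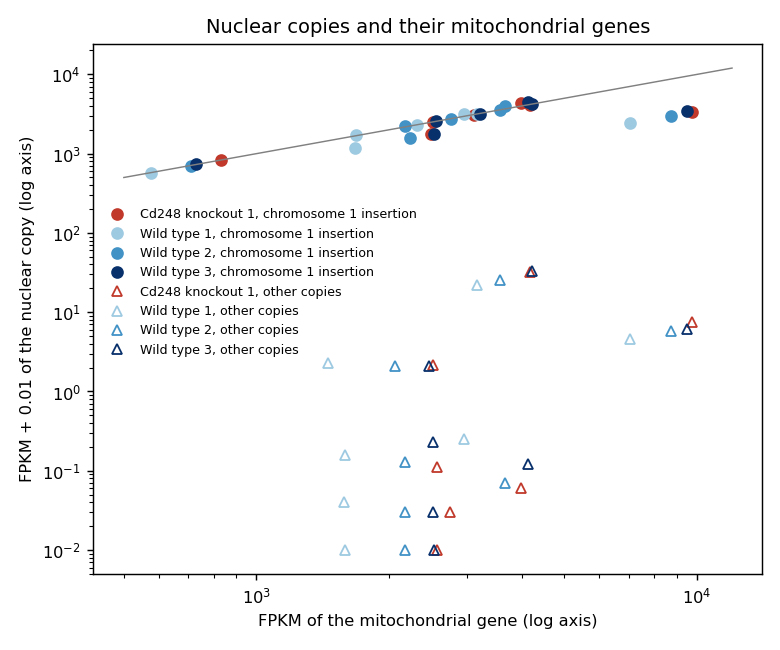
FPKM + 0.01 of nuclear copies (vertical, log axis) against FPKM of the mitochondrial gene they resemble (horizontal, log axis), with 1 point per copy and library. Filled circles are the 7 copies of the chromosome 1 insertion, open triangles the 7 other copies in the table, and the line marks equality. Circles of the 5 nearly full-length copies fall on the line at ratios of 0.990 to 1.08, and all triangles lie far below it, at up to 33.2 FPKM.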

How the data were processed

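Libraries were made from Trizol-extracted, oligo(dT)-purified RNA, per the labels' protocols. The submitters' processing notes list cutadapt 1.9, FastQC, HISAT2 2.0.4 and mm10, without their roles. The deposited table holds FPKM rounded to 2 decimals, made by the authors with a program that the sources used here do not give. The authors' fold change ratio, its log2 value and their p-value and q-value columns in the deposited table are from a test that is not given there, and only their q-value and significance mark are quoted. No column of other samples was present. Low FPKM times transcript length showed no steps of whole fragments, so depth is unknown and no counting interval is given.

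Groups and replicate numbers came from sample titles. The comparison, planned for all samples with a value column, was 1 knockout library against 3 wild type libraries, and the lone knockout sample is taken to be as variable as the wild type ones (2 residual and 2.32 prior degrees of freedom). limma 3.58.1 in R 4.3.3 was run with a mean-variance trend on log2(FPKM + 1) for genes averaging 0.5 FPKM or more, a scale that understates changes of low genes. The fit was tested on simulated data of the same layout. The changes put in were far larger than the differences of the mitochondrial mRNAs, so that test does not show whether differences of their size would be called. Shares and ratios were compared by two-sided exact permutation tests over libraries, unadjusted. Copies were found with blastn 2.17.0 among GENCODE M21 transcripts, and coordinates and sequences are from GENCODE M21.

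The members, the gene lists and the copies of chromosome 1 were chosen with earlier results of these data known. Named were all mRNAs and rRNAs, the 5 tRNA genes of highest mean, and in each nuclear list for transcription, RNA processing, replication, biogenesis and mass the called genes and the 2 largest differences among genes of at least 1 FPKM outside the wild type range, besides Cd248 and the chromosome 1 copies. Alternatives were other pseudocounts, filters, scalings and denominators, and each wild type library left out.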

Additional observations from a re-analysis of the deposited data

How the results depend on the processing

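No paired analysis was possible because the groups share only 1 replicate number with value columns. No mitochondrial transcript passed limma's test under any of 10 alternatives, in which their smallest adjusted p ran from 0.262 to 0.592. The number of genes called was 122, and it was 39 with a pseudocount of 0.1 FPKM, 205 with no filter on low values, and 45 to 63 without 1 wild type library. The median difference of the mRNAs, 0.23, became -0.0158 with quantile normalization, and it was 0.10 to 0.36 without 1 wild type library. Quantile normalization also turned mt-Co2 (-0.0215), mt-Atp8 (-0.0661), mt-Atp6 (-0.12), mt-Co3 (-0.11), mt-Nd4l (-0.0532), mt-Nd4 (-0.29), mt-Cytb (-0.0158) and mt-Ts1 (-0.0112), and the cause was not tested.

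Scaling every library to 1 common FPKM total moved the median of all tested genes to -0.11 and that of the mRNAs to 0.10. Without 1 wild type library the knockout minus wild type share of all members was -0.0013 (without replicate 1) to 2.32 percentage points, and that of the mRNAs -0.0121 to 2.14. Without immunoglobulin genes in the total, the knockout library moved above the wild type range for all members (18.0%, against 13.2%, 15.99% and 17.9%) and for the tRNAs (0.816%, against 0.473%, 0.655% and 0.781%). The rRNA share stayed below the wild type range under the other denominators, one of which, leaving out the chromosome 1 copies, was chosen after seeing the data. Without 1 wild type library, also chosen after seeing the data, the differences of mt-Tl1 over mt-Rnr2 were 0.87 to 0.89 and of mt-Nd6 over mt-Nd5 0.0725 to 0.0774. The rRNA and tRNA shares have no value with those classes left out of the total. Depth is unknown, and 1 knockout library limits every comparison.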

Other observations

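Plus strand tRNA genes with low levels varied in how the libraries were ordered, and those named here were chosen after their values were seen. mt-Tf, the phenylalanine tRNA at the start of the plus strand precursor, stood at 0.38 FPKM in the knockout library, against 0.76, 0.81 and 0.85 FPKM in the wild type libraries (limma adjusted p = 0.438). mt-Tv, the valine tRNA between the rRNAs, was at 0.02 FPKM, against 0.46 and 0.38 FPKM in wild type replicates 1 and 2, and was listed at 0 in replicate 3. mt-Tg, the glycine tRNA, was at 11.6 FPKM, against 6.88, 9.65 and 0.29 FPKM. Wild type replicate 3, which had the highest level of every mitochondrial mRNA among the wild type libraries, was the lowest library for mt-Tg. The other low genes mt-Td, mt-Tt and mt-Tk, at 1.95, 2.12 and 2.34 FPKM in the knockout library, lay inside their wild type ranges.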
